A study of Mus musculus with 8 samples.

Results

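Small intestinal RNA of ApcMin/+ mice on a Western-type diet was compared with that of mice on a control diet, for the genes that all 8 arrays detected reliably. A gene was kept if its probe was well above background on every array and lost no spot to the outlier mark of the scanner software, which left 20446 of 39429 probes and 16927 genes, 12398 of them with a symbol. The genes described are the 500 in which the 4 Western arrays and the 4 control arrays did not overlap. In 208 of them every Western array lay above every control array, and in 292 every Western array lay below. These 208 were 1.23% of the genes measured and the 292 were 1.73%. The 8 arrays can be split 4 against 4 in 70 ways, and 1 of these separates a gene in a given direction. Both shares are near 1 in 70, so labels unrelated to the signal would give about as many separated genes. The 500 genes are therefore a description and not a set shown to respond to diet.

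All mice were C57BL/6J Min/+, a strain that carries 1 truncated copy of the Apc tumour suppressor in every cell and develops intestinal adenomas. Control mice ate AIN-93G, a semisynthetic formula. The Western diet was a modified AIN-93G rich in fat and low in fibre, vitamin D, calcium and folate, in which milk supplied 66.4% of the fat and plant oils (rapeseed, sunflower) the remaining 33.6%. The labels give 2 arrays each to Control male, Control female, Western male and Western female mice, with RNA of 1 to 3 mice on an array and feeding for 18 months, which is long for mice of this strain and was not checked. The age of the mice is not given in the sources used here. Whether both arrays of a group came from separate mice is not stated in the labels, so errors and p-values measure the spread between arrays, which may be partly technical. The labels do not say whether adenomas were part of the tissue.

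Fatty acids that reach the gut wall bind PPAR transcription factors, which switch on genes for storing and burning fat. One of their best known targets is Pdk4, a kinase that inhibits pyruvate dehydrogenase and so spares glucose carbon when fat is burned. The enterocyte also carries enzymes on its surface that split sugars and peptides, and its transporters for calcium, metals and sterols follow the supply of these in the diet.

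Values are log2 signal relative to the 75th percentile of the array, so 0 is a gene at that percentile. Per-array values are listed in the order male 1, male 2, female 1, female 2 within each diet. Differences are Western minus control with the standard error (SE) of the limma fit, which averages the labelled sexes, with 4 arrays on each diet. Since a signal depends on the probe as well as on the transcript, levels are compared between arrays and not between genes. In bulk tissue, fewer cells of a type and less RNA per cell cannot be told apart.

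The library labelled Control female 1 does not match its labels. It carried the Y-linked transcripts Ddx3y (-0.35), Eif2s3y (2.01) and Uty (-2.60) at the level of the 4 male arrays, where they ranged from -0.91 to -0.55, from 1.88 to 2.57 and from -3.30 to -2.60. On the other 3 female arrays Ddx3y lay at or under -6.82 and Eif2s3y at or under -5.47. The name of its deposited file also carries the abbreviation of the other diet. It was kept in the group that its label gives, and results are given with and without it. Control female 2 stands apart in another way, with 75.6% of probes well above background against 55.1% to 61.9% on the other 7 arrays. The epithelial markers Vil1, Cdx1, Cdx2, Fabp2, Alpi, Lct, Sis, Apoa4, Lgr5, Lyz1 and Muc2 were all reliably detected, and their summed signal ranged from 1670 to 2000 times 1 array's 75th percentile on the control and from 1390 to 2050 on the Western diet.

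In the limma fit no diet difference was called: 0 of 16927 genes (0.0%) had an adjusted p under 0.05, the smallest being 1. At an unadjusted p under 0.05 there were 170 genes higher (1.0%) and 487 lower (2.88%) on the Western diet. Of all 16927 genes 8063 had a higher mean and 8864 a lower mean on the Western diet. Counts of list members with a higher or lower mean are to be read beside these and were not tested. The genes described below were therefore chosen by how they lay on the arrays, and none of their differences passed a test across all genes. The gene lists were not tested either, and a list with 0 or 1 separated member is near the shares of 1.23% and 1.73% over all genes and is given as a count only. The difference in the diet effect between the labelled sexes passed for 0 genes (smallest adjusted p 0.745, 223 genes at an unadjusted p under 0.05).

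**Figure D1:**
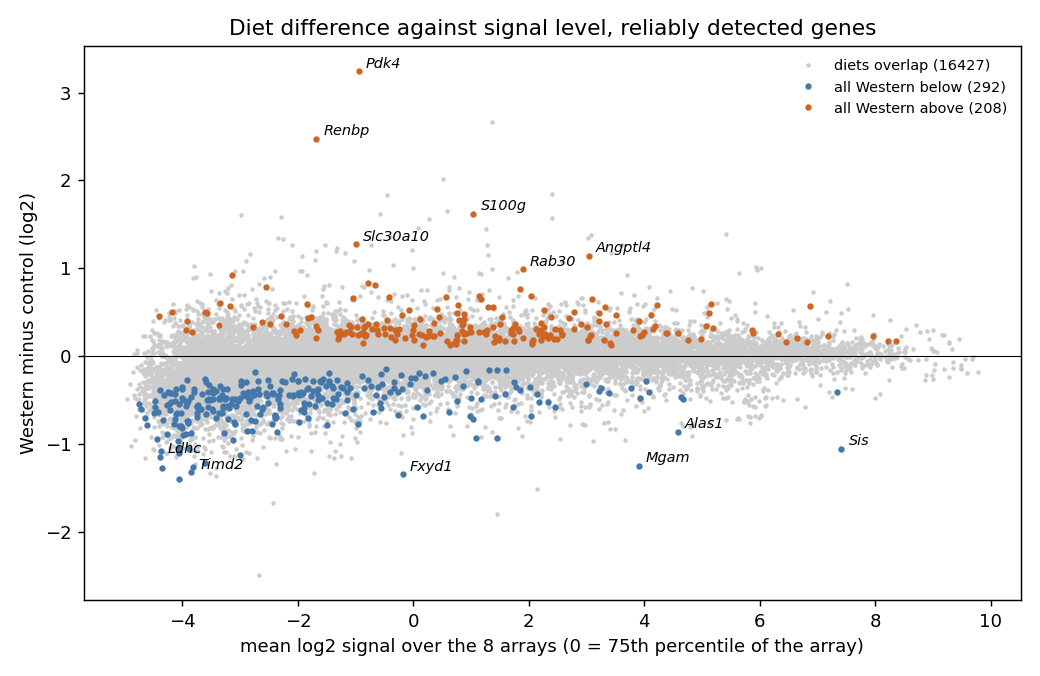
Western minus control difference (log2) of each reliably detected gene against its mean log2 signal over the 8 arrays. Orange points are the 208 genes with every Western array above every control array, blue points the 292 with every Western array below, and grey points the 16427 that overlap. Among separated genes Pdk4 (3.24) and Renbp (2.47) have the largest differences, and most blue points lie at low signal.

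Most separated differences were small. The 208 genes that lay higher differed by a median of 0.30, a 1.23-fold difference, and 5 of them by more than 2-fold. The 292 that lay lower differed by a median of -0.48, a 1.39-fold difference, and 14 of them by more than 2-fold. Genes with all Western arrays lower were also dimmer. Their median level was -2.43, against 0.05 for all genes and 0.87 for those that lay higher. Of the dimmest of 3 equal groups of genes by level 3.46% lay lower and 0.479% higher, while of the brightest 0.425% lay lower and 1.45% higher. Control female 2 had the highest median in that dimmest group, -2.58 against -3.11 to -2.83 on the other arrays. Without Control female 2, 212 genes of the dimmest group lay lower and 78 higher, against 195 and 27 with it. More of these genes therefore still lay lower than higher, and fewer arrays separate more easily. The median difference of the group was -0.166 with Control female 2 and -0.077 without it.

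The way the arrays were scaled set the balance between the directions. Of the 500 separated genes 41.6% lay higher on the Western diet. That share was 63.6% of 439 genes after quantile normalization (279 higher, 160 lower), 24.5% with the 75th percentile of the probes detected on all arrays (144 higher, 443 lower), 38.6% with the normexp background (218 higher, 347 lower) and 96.8% with each array set to its median (363 higher, 12 lower). The median difference of all genes was -0.011 as reported and 0.38 with each array set to its median, so changes under that scaling are relative to a shift of that size. Of the 208 and 292 genes, 63 and 59 were separated in the same direction under quantile normalization, the detected-probe percentile and normexp together, and 34 and 6 under all 4 alternatives. Where a gene named below lost its separation under one of the first 3, this is said beside it. Sizes also differed within single slides. Slide 1 held replicate 1 of every group and slide 3 the remaining arrays except Western male 2. The value within slide 1 averages the male and the female difference, the latter taken against the library labelled Control female 1. The value within slide 3 is Western female 2 minus Control female 2 only, so it is 1 array against 1. Of 78 separated genes named here 52 had a difference within at least 1 of these slides that was over 1.5 times larger or smaller than with all 8 arrays, and the sign within a slide is fixed by the choice of genes.

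Fuel genes gave the largest difference. Pdk4 measured -2.54, -3.83, -1.66 and -2.26 on the control arrays and -0.16, 1.00, 0.23 and 1.61 on the Western arrays. Every Western array stood above the highest control array, the library labelled Control female 1, and the gap between the diets was 1.498. The means were -2.57 ± 0.92 in control and 0.67 ± 0.79 in Western arrays (SD, n = 4), a difference of 3.24 ± 0.44 SE or 9.47-fold. The limma adjusted p was 1, and 0.0993 without the library labelled Control female 1 (range over the alternatives 1.14e-13 to 1). The difference was 2.13 within slide 1 and 3.87 within slide 3.

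Of 29 measured PPAR target genes of lipid handling, 4 lay higher on every Western array (Pdk4, Angptl4, Rab30 and Vnn1), against 1.23% of all genes, and 0 lay lower. The median difference of the list was 0.185, against -0.011 for all genes. Its members were chosen with earlier results of these data known, so the count is a description only. Angptl4, a secreted inhibitor of lipoprotein lipase, measured 2.07, 2.36, 2.60 and 2.84 on the control and 4.28, 3.53, 3.26 and 3.38 on the Western diet. Western male 1 was the highest and the control arrays reached 2.84, below all 4 Western values. Its difference was 1.14 ± 0.20 SE, or 2.21-fold, with 1.44 within slide 1 and 0.54 within slide 3. Rab30, a small GTPase of the Golgi, was 0.99 ± 0.28 SE higher, and 1 array carried much of it. Western female 1 measured 3.42 and the other 3 Western arrays 1.97 to 2.09, above the 1.28 to 1.57 of the control arrays, and without Western female 1 the difference was 0.66. A second Rab30 probe overlapped between the diets, with a difference of 0.49. Vnn1, the pantetheinase that recycles pantothenic acid, was at 4.60 to 5.22 on the control and 5.23 to 5.48 on the Western arrays, a difference of 0.49 ± 0.16 SE.

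Lists of enzymes that burn fat had counts of 0, near the shares over all genes. Of 33 mitochondrial fatty acid oxidation genes 26 had a higher mean on the Western diet, but 0 had all Western arrays above all control arrays, and the median difference was 0.132. Of 41 peroxisomal and omega oxidation genes 0 were separated (median 0.076), and of 14 acyl-CoA thioesterases 0 (median 0.143). Among 11 genes of ketone bodies and monocarboxylate transport, Slc16a1, a lactate and ketone body transporter, lay lower by 0.48 in size (-0.48 ± 0.18 SE) and kept this neither after quantile normalization nor with normexp. Cd36, a fatty acid transporter on the same PPAR list, had a larger difference (1.36 ± 0.38 SE) and yet overlapped, with Control female 2 at 0.02, above the -0.65 of Western male 1 and the -0.03 of Western female 2.

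Renbp had the second largest difference among separated genes. It encodes an epimerase that interconverts N-acetylglucosamine and N-acetylmannosamine, a step next to sialic acid synthesis. It measured -2.95, -3.82, -1.60 and -3.32 on the control and -1.35, 0.37, -0.85 and 0.02 on the Western diet. The library labelled Control female 1 was the highest control and Western male 1 the lowest Western array, only 0.259 apart. The difference was 2.47 ± 0.52 SE, or 5.55-fold, with 1.18 within slide 1 and 3.34 within slide 3. The other 19 of 20 measured genes of sialic acid and hexosamine metabolism were not higher on every Western array, and 1, Oga, which removes N-acetylglucosamine from proteins, lay lower (-0.41 ± 0.18 SE, and -0.26 without Western male 2), though not after quantile normalization.

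**Figure D2:**
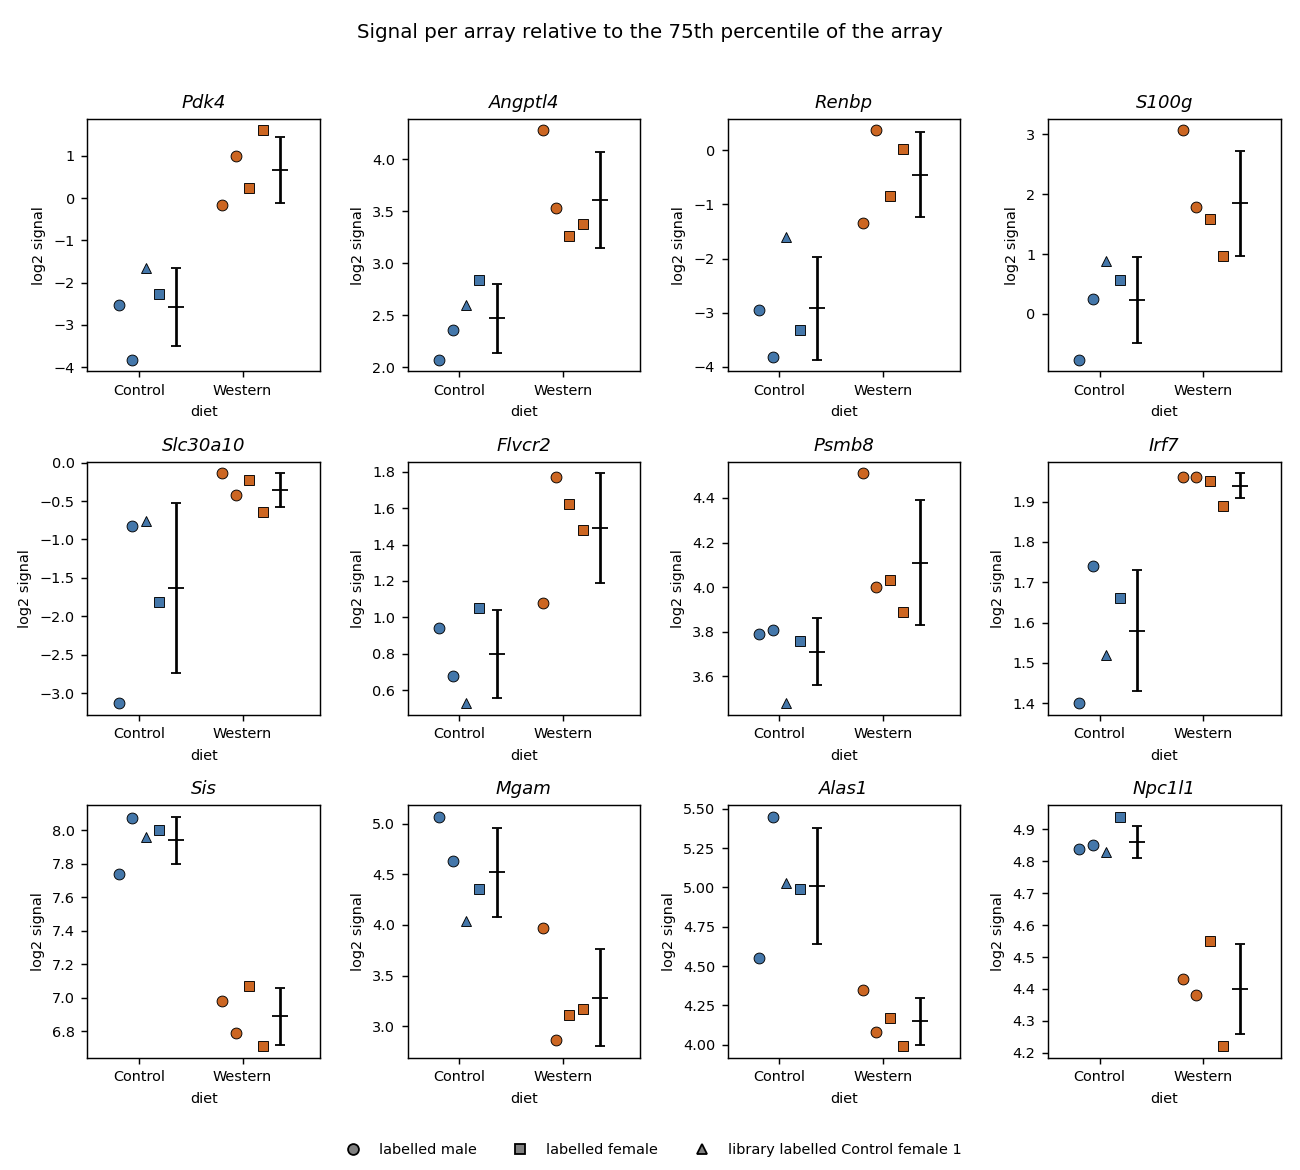
Log2 signal relative to the 75th percentile of the array for 12 genes, by diet. Each point is 1 array, circles labelled male, squares labelled female and the triangle the library labelled Control female 1. The horizontal mark and bar give the mean and SD of the 4 arrays. Pdk4 and Sis show the widest gaps between diets, while Flvcr2 (0.033), Mgam (0.072), Psmb8 (0.073) and S100g (0.091) show the narrowest.

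Among 20 measured genes of vitamin D action and calcium absorption, 2 lay higher on every Western array and 1 lay lower, where 1.23% and 1.73% of all genes did, and the list median was -0.081. S100g, the calcium-binding protein calbindin-D9k that carries calcium through the enterocyte and is induced by vitamin D, measured -0.77, 0.25, 0.88 and 0.56 on the control and 3.07, 1.79, 1.58 and 0.97 on the Western diet. The highest control and the lowest Western array, Western female 2, lay 0.091 apart, so the groups touch without overlapping. The difference was 1.62 ± 0.35 SE (3.07-fold), 2.27 within slide 1 and 0.41 within slide 3. A second S100g probe was separated too, with a difference of 1.61. Slc30a10, a manganese exporter, measured -3.13, -0.82, -0.76 and -1.81 on the control and -0.14, -0.42, -0.22 and -0.64 on the Western diet. Control male 1 was far below the other control arrays, and without it the difference was 0.70 in place of 1.27 ± 0.49 SE. Atp2b4, a calcium pump of the plasma membrane, lay lower (-0.58 ± 0.23 SE), but not after quantile normalization or with normexp. Trpv6, the calcium channel of the brush border, was dim and overlapped (-4.78 to -3.50 on the control, -4.83 to -4.53 on the Western diet).

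Of the 4 measured enzymes that split sugars on the brush border, 2 were below on every Western array, Sis and Mgam, and 2 overlapped, Lct and Treh. Of all genes 1.73% lay lower, and a list of 4 genes is small. Sis, the sucrase-isomaltase that splits sucrose and starch products, measured 7.74, 8.07, 7.96 and 8.0 on the control and 6.98, 6.79, 7.07 and 6.71 on the Western diet. The 4 control arrays spanned 0.33 and the lowest stood 0.664 above the highest Western array. The difference was -1.06 ± 0.16 SE, 2.08-fold lower, with -0.82 within slide 1 and -1.29 within slide 3. Mgam, the maltase-glucoamylase of the same enzyme family, measured 5.07, 4.63, 4.04 and 4.35 on the control and 3.97, 2.86, 3.11 and 3.17 on the Western diet. The library labelled Control female 1 and Western male 1 came within 0.072 of each other, so the difference of -1.24 ± 0.26 SE held its separation with normexp only and lost it under quantile normalization and the detected-probe percentile. A second Mgam probe was separated as well (-1.30).

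The lactase gene Lct ranged from 6.83 to 8.28 on the control and from 6.21 to 8.66 on the Western diet, and the trehalase gene Treh from 4.0 to 5.07 and from 3.80 to 5.04. Both ranges lay almost on top of each other, with differences of -0.16 ± 0.40 SE and -0.01 ± 0.30 SE. Of 19 genes of glucose and fructose uptake and use 16 had a lower mean on the Western diet (median -0.189), but 0 were separated. Slc2a2, the basolateral sugar transporter, was -1.51 ± 0.42 SE lower in the mean and overlapped because Western female 1 (2.81) lay above Control male 1 (1.90) and Control male 2 (2.78). Slc5a1, the sodium-linked glucose transporter, was -0.91 ± 0.31 SE lower and overlapped because Western male 1 (4.82) lay above Control male 1 (4.68). Of 28 glycolysis genes, Pklr, a pyruvate kinase, was separated (-0.28 ± 0.15 SE); it measured 0.46 to 0.88 on the control and 0.30 to 0.42 on the Western diet.

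The 250 bases before the start of Sis, Mgam, S100g and Pdk4 are shown because these genes lead the sugar, calcium and fuel results. They are RefSeq promoter sequences of build GRCm38.p6, 5′ to 3′ on the strand of the gene. Capitals mark any match, on either strand, to TTTATG (a caudal-type core as bound by Cdx factors), TTAATNATT (an HNF1-type core) or AGGTCA (a nuclear receptor half-site). No 2 marked matches overlap.
Sis, chr3:72967864-72968113, minus strand: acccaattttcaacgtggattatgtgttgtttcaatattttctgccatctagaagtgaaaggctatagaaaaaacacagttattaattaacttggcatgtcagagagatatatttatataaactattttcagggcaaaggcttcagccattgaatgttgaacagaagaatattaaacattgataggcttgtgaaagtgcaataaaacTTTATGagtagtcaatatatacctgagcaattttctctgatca
Mgam, chr6:40628581-40628830, plus strand: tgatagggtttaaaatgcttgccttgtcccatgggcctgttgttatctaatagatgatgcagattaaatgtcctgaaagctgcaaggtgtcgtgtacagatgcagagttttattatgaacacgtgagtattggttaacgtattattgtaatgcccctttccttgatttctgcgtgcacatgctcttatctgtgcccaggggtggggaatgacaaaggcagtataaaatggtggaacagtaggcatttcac
S100g, chrX:162964600-162964849, minus strand: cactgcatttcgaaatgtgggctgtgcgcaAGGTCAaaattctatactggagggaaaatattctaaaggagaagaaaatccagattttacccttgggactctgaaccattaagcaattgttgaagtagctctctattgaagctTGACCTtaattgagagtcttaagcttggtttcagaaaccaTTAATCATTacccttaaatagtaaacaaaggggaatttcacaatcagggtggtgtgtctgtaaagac
Pdk4, chr6:5496279-5496528, minus strand: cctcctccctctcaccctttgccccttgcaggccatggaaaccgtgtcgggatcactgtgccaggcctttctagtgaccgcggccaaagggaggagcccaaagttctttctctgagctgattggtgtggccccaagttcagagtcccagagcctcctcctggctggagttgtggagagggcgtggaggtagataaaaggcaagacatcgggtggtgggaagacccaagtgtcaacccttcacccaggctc
The Sis window holds TTTATG 43 bases before the start, and 10.8% of 32851 promoter windows of this length hold that motif. The S100g window holds AGGTCA at positions -220 and, on the other strand, -107, and TTAATNATT at -67; 14.0% and 1.40% of windows hold these. The Mgam and Pdk4 windows hold none of the 3. A match of letters does not show that a factor binds there, and no match says only that these letters are not in this window. Angptl4, Rab30 and Vnn1 have no entry in the table used.

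A few iron, haem and metal genes were separated, where 1.23% of all genes lay higher and 1.73% lower. Of 34 measured genes of iron and haem, Flvcr2 lay higher and Alas1 lower (list median 0.094). Alas1, the first enzyme of haem synthesis, measured 4.55, 5.45, 5.03 and 4.99 on the control and 4.35, 4.08, 4.17 and 3.99 on the Western diet. Control male 1 lay closest to the Western arrays and Control male 2 farthest. The difference was -0.86 ± 0.22 SE, 1.81-fold lower, and a second Alas1 probe was separated in the same direction (-0.57). Flvcr2, a membrane transporter related to the haem exporter Flvcr1, measured 0.94, 0.68, 0.53 and 1.05 on the control and 1.08, 1.77, 1.62 and 1.48 on the Western diet. Western male 1 was within 0.033 of Control female 2, and the difference was 0.69 ± 0.21 SE. Of 28 metallothionein, zinc and copper genes, Slc30a10 (above) and Slc39a8, an importer of zinc and manganese, lay higher; Slc39a8 differed by 0.43 ± 0.16 SE and was not separated with the detected-probe percentile or normexp. Of 34 folate and one-carbon genes, a nutrient the Western diet was low in, 0 were separated (median -0.045).

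Detoxification and vitamin A lists held 0 to 2 separated members each. Rdh5, a retinol dehydrogenase, lay higher by 0.44 ± 0.20 SE among 29 vitamin A and carotenoid genes, with 0.52 within slide 1 and 0.02 within slide 3. Cyp3a57, a drug-metabolising cytochrome P450, lay higher by 0.56 ± 0.26 SE among 37 genes of the Cyp2 and Cyp3 families and their receptors. Control male 1 carried part of both, and without it the differences of Rdh5 and Cyp3a57 were 0.29 and 0.30. Aldh2, the mitochondrial aldehyde dehydrogenase, lay higher by 0.40 ± 0.16 SE among 47 alcohol, aldehyde and aldo-keto enzymes, although not after quantile normalization or with the detected-probe percentile. Bco1, which splits beta-carotene into retinal, had the largest mean difference of any overlapping vitamin A gene. It measured -1.62, -2.97, -2.82 and 1.67 on the control and -4.48, -4.27, -2.38 and -4.57 on the Western diet. Control female 2 lay far above the other control arrays and Western female 1 above both Control male 2 and the library labelled Control female 1, which set the difference at -2.49 ± 0.96 SE with overlap. Of 35 transporters listed with the ABC efflux pumps, Slc22a21, a carnitine transporter, lay higher (0.29 ± 0.17 SE, and 0.16 without Control female 2) and Slco3a1, an organic anion transporter, lower (-0.47 ± 0.18 SE); the first kept its separation under none of quantile normalization, the detected-probe percentile and normexp, and the second lost it with the detected-probe percentile.

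Sterol genes had 2 members on the lower side. Npc1l1, the brush-border protein that takes up cholesterol, measured 4.84, 4.85, 4.83 and 4.94 on the control and 4.43, 4.38, 4.55 and 4.22 on the Western diet. The control arrays were nearly equal, and the gap to the highest Western array was 0.277. The difference was -0.47 ± 0.15 SE, or 1.38-fold, among 19 genes of sterol transport and storage with a median of 0.003. Dhcr7, the last enzyme of cholesterol synthesis, lay lower by a difference of -0.31 ± 0.16 SE, though not with the detected-probe percentile or normexp. It was 1 of 29 genes of cholesterol synthesis and uptake, 23 of which had a lower mean on the Western diet (median -0.150). Of 39 genes of fatty acid uptake and triglyceride turnover, Pnpla8, a phospholipase, lay higher (0.41 ± 0.21 SE) but under none of the scaling alternatives, and its difference was 0.25 without Control male 2 and 0.26 without Western male 2. Chylomicron and apolipoprotein genes had 0 of 24 separated, fatty acid synthesis and desaturation 0 of 26, and bile acid transport 0 of 16.

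Energy metabolism lists had no separated member. Of 41 respiratory complex I genes 0 were separated, with differences between -0.23 and 0.21. The same held for 49 genes of complexes II to V (median -0.005), 84 genes of the mitochondrial ribosome and biogenesis (median 0.052) and 26 genes of the TCA cycle (median 0.009). A count of 0 among 41 genes is near what the background of 1.23% and 1.73% gives, so it shows no difference from other genes.

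**Figure D3:**
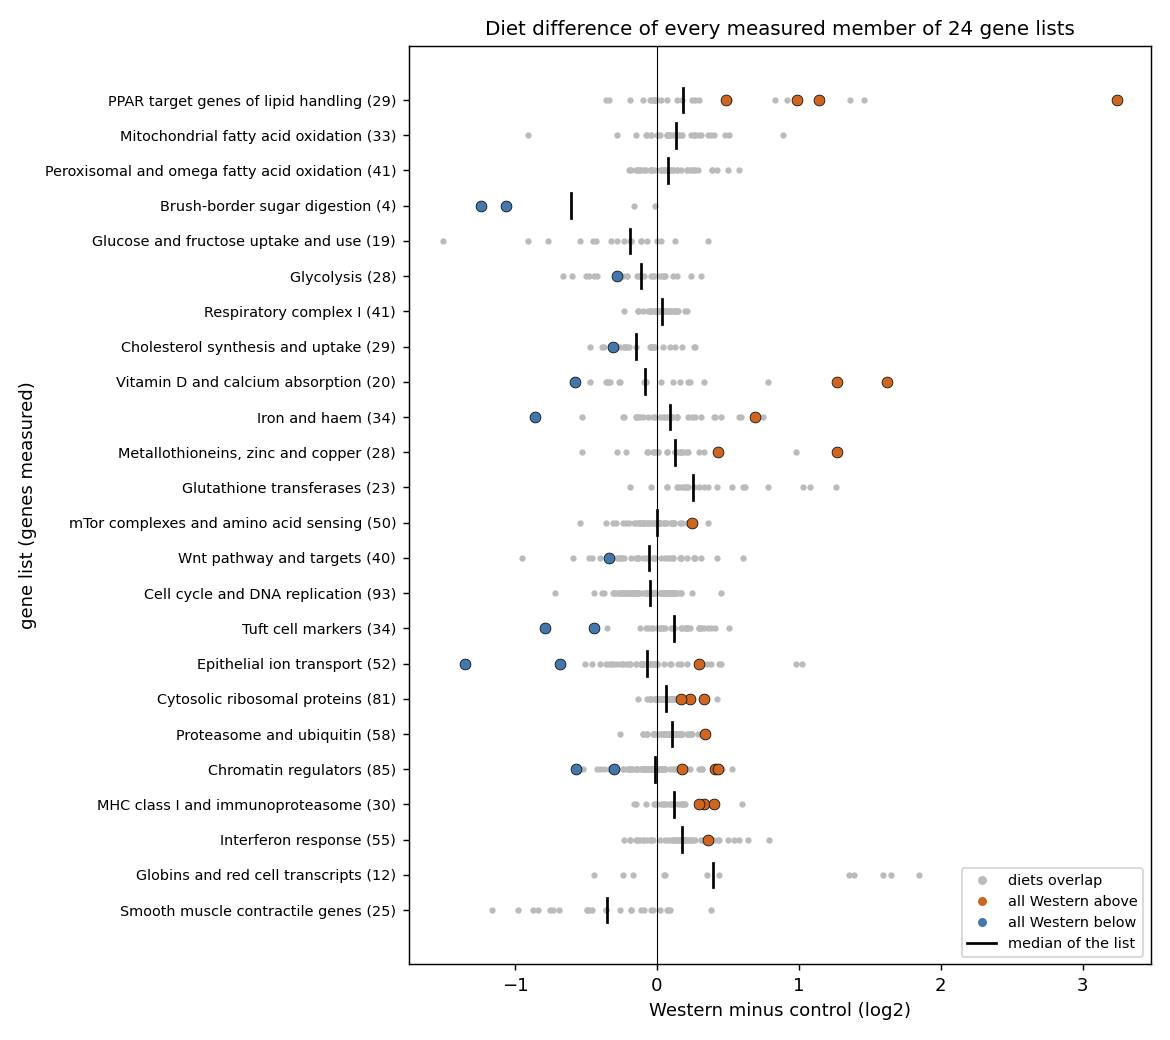
Western minus control difference (log2) of every measured member of 24 gene lists, with the number measured in brackets. Orange and blue points are members with every Western array above or below every control array, grey points overlap, and the black mark is the median of the list. The PPAR target list has 4 orange points among 29 genes and the MHC class I list 3 among 30. The smooth muscle list has the lowest median (-0.355) of the plotted lists with more than 4 members, with 0 members separated. The lists were chosen with earlier results of these data known.

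Growth and tumour pathway lists held 0 to 2 separated members each, where 1.23% of all genes lay higher and 1.73% lower. Of 43 genes of the Erk pathway and its targets, Phlda1, a target that also marks intestinal stem cells, lay lower (-0.68 ± 0.19 SE). It measured 1.20, 1.26, 1.06 and 1.73 on the control and 0.97, 0.77, 0.50 and 0.31 on the Western diet, and the nearest arrays of the diets were 0.093 apart, and it overlapped with the detected-probe percentile. Of 40 Wnt pathway genes, the transcription factor gene Tcf7l2, whose protein binds beta-catenin, lay lower (-0.34 ± 0.16 SE), as did 1 of its 2 other probes (-0.86, with -0.39 and overlap at the other); with each array set to its median the sign turned to 0.05. Of 37 TGF-beta and BMP genes, Chrd, the BMP inhibitor chordin, and Id2, a BMP target, lay lower (-0.85 ± 0.28 SE and -0.42 ± 0.19 SE). Chrd was at -1.41 on Control female 2 and -2.81 to -2.57 on the other control arrays, and without Control female 2 its difference was -0.52. The difference of Id2 was -0.26 without Control male 2.

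Single members lay higher in other signalling lists. Cblb, a ubiquitin ligase that dampens receptor signalling, was 0.36 ± 0.15 SE higher among 17 EGF receptor genes, though not with normexp. Seh1l, a nuclear pore protein that is also part of the GATOR2 complex of amino acid sensing, was 0.25 ± 0.14 SE higher among 50 mTor genes. Zfp36l2, an RNA-binding protein that speeds mRNA decay, was 0.46 ± 0.18 SE higher among 27 immediate early genes, but not after quantile normalization or with the detected-probe percentile. Bmi1, a Polycomb protein, was 0.37 ± 0.15 SE higher among 26 stem cell markers, and of 54 DNA repair and p53 genes Ccng1 (0.28 ± 0.16 SE) and Xpa (0.21 ± 0.15 SE, and 0.12 without Control male 1) lay higher, Ccng1 not with the detected-probe percentile. Of 93 cell cycle genes 0 were separated (median -0.049), and of 38 insulin, PI3K and Foxo genes 0 (median 0.055).

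Epithelial cell types were represented by a few genes each, where 1.23% of all genes lay higher and 1.73% lower. Of 34 tuft cell markers 2 lay lower, Pou2f3, the transcription factor that tuft cells require, and Tas1r3, a taste receptor subunit, while 25 of the 34 had a higher mean and the list median was 0.120. Pou2f3 measured -3.62, -4.08, -3.74 and -3.23 on the control and -4.38, -4.30, -4.38 and -4.76 on the Western diet, all at low signal. Its difference was -0.79 ± 0.20 SE and did not stay separated after quantile normalization. Tas1r3 differed by -0.44 ± 0.16 SE. Of 43 goblet cell genes, Fcgbp, a mucus protein, lay lower (-0.40 ± 0.15 SE), from 7.42 to 7.65 on the control and 6.84 to 7.33 on the Western diet. Capn8, a calpain of mucus cells, lay lower too (-0.37 ± 0.15 SE), but its sign turned to 0.18 after quantile normalization and 0.02 with each array set to its median. Paneth cell products had 0 of 25 separated, and enteroendocrine genes 0 of 38.

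Of 52 ion transport genes, 1 lay higher and 2 lower, where 1.23% and 1.73% of all genes did. Slc26a3, the chloride and bicarbonate exchanger of the gut surface, was 0.30 ± 0.14 SE higher under the main scaling and all 4 alternatives. Slc4a4, a sodium bicarbonate cotransporter, was lower (-0.68 ± 0.17 SE), but not with the detected-probe percentile, and its other probes overlapped (-0.65 and 0.04). Fxyd1, phospholemman, a regulator of the sodium pump that is abundant in muscle, had the largest difference among separated lower genes with a symbol. It measured 0.37, 0.66, -0.15 and 1.07 on the control and -1.20, -0.21, -1.40 and -0.61 on the Western diet. Western male 2 came within 0.069 of the library labelled Control female 1, and the difference was -1.35 ± 0.35 SE, not separated with normexp. Smooth muscle contractile genes had 0 of 25 separated and 20 of 25 with a lower mean on the Western diet (median -0.355), and their summed signal ranged from 256 to 362 on the control and from 254 to 314 on the Western diet. Palld, an actin-binding protein (-0.93 ± 0.20 SE), and Eln, elastin (-0.77 ± 0.26 SE), lay on the same side, Eln not after quantile normalization or with normexp. The part of muscle and stroma in these 3 genes was not tested.

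Antigen presentation had 3 genes on the higher side. Of 30 genes of MHC class I and the immunoproteasome 3 were above on every Western array, Psmb8, Psmb9 and H2-T10, against 1.23% of all genes. In the list 24 genes had a higher mean, and the list median was 0.118. Psmb8, an interferon-induced proteasome subunit, measured 3.79, 3.81, 3.48 and 3.76 on the control and 4.51, 4.0, 4.03 and 3.89 on the Western diet. The highest control array lay 0.073 below Western female 2, and the library labelled Control female 1 lay below the other control arrays. The difference was 0.40 ± 0.17 SE, and Psmb8 lost its separation after quantile normalization. Psmb9, another interferon-induced proteasome subunit, was 0.30 ± 0.15 SE higher but separated under none of the scaling alternatives. H2-T10, a nonclassical class I gene, was 0.33 ± 0.17 SE higher (0.21 without Western male 1), not with the detected-probe percentile. Psmb10 (0.29 ± 0.19 SE) and Tap2, a subunit of the peptide pump of the same pathway (0.35 ± 0.17 SE), overlapped. Of 55 interferon response genes, Irf7, which switches on type I interferon genes, lay higher at 1.89 to 1.96 against 1.40 to 1.74 (0.36 ± 0.15 SE), and kept this under all 4 alternatives. The lists for MHC class II (14 measured), B cells (21), T cells (43), macrophages and dendritic cells (43) and mast cells and granulocytes (14) had 0 separated members. Summed T cell signal was 109 to 207 on the control and 111 to 172 on the Western diet.

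Genes that make and break down proteins and RNA contributed small differences and few separated members, where 1.23% of all genes lay higher. Of 81 cytosolic ribosomal protein genes 70 had a higher mean on the Western diet and 3 were separated, among them Rpl22l1 (0.33 ± 0.14 SE) and Rpl14 (0.23 ± 0.14 SE). The list median was 0.061, and Rpl14 was not separated after quantile normalization or with the detected-probe percentile. Of 58 proteasome and ubiquitin genes 47 had a higher mean (median 0.105) and 1, Psma5, a core proteasome subunit, was separated (0.34 ± 0.14 SE), not under those same settings. Ctsl, the lysosomal protease cathepsin L, was 0.37 ± 0.15 SE higher (not after quantile normalization) and Atg12, an autophagy protein, 0.33 ± 0.16 SE, among 75 genes of autophagy and the lysosome. Polr1c, a subunit of RNA polymerases I and III, was 0.24 ± 0.14 SE higher under the main scaling and normexp. Of 73 splicing factors Srsf10 (0.36 ± 0.13 SE) and Hnrnpr (0.23 ± 0.13 SE) lay higher, both overlapping with the detected-probe percentile.

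Of 85 chromatin regulators 3 lay higher (3.53%, against 1.23% of all genes) and 2 lower (2.35%, against 1.73%), with a median of -0.014. Cbx3, a heterochromatin protein, measured 2.55, 2.48, 2.56 and 2.34 on the control and 2.79, 2.80, 2.93 and 3.13 on the Western diet. The nearest arrays of the diets lay 0.229 apart. Its difference was 0.43 ± 0.14 SE and stayed separated under all 4 alternatives, but a second Cbx3 probe overlapped, with a difference of 0.11. Kat2b, a histone acetyltransferase, also stayed separated under all 4 (0.41 ± 0.15 SE, with 0.56 within slide 1 and 0.06 within slide 3). Ezh2, the histone methyltransferase of Polycomb, was 0.18 ± 0.14 SE higher, not with the detected-probe percentile. Suv39h1, another histone methyltransferase, lay lower (-0.57 ± 0.25 SE), and Control female 2 carried it: that array was at -1.57, the other control arrays at -2.75 to -2.66, and the difference without it was -0.29. It was not separated after quantile normalization. Chd8, a chromatin remodeller, was -0.30 ± 0.15 SE lower, not separated with normexp, and 0.09 with each array set to its median.

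Genes outside these groups were also among the largest separated differences on the higher side. Rasgrp1, an activator of Ras in lymphocytes, was 0.92 ± 0.17 SE higher, from -4.23 to -3.12 on the control and -3.04 to -2.28 on the Western diet, but not separated with normexp. Csta2, a cysteine protease inhibitor of the cystatin family, was 0.83 ± 0.24 SE higher, with Control female 2 at -1.75 below the other control arrays, and overlapped with the detected-probe percentile. Arl3, a small GTPase of cilia, was 0.79 ± 0.35 SE higher, and without the library labelled Control female 1 (-4.05) the difference was 0.39, without Control female 2 it was 1.19, and with normexp it overlapped. Plpp5, a lipid phosphatase, and Hunk, a protein kinase, were 0.68 ± 0.17 SE and 0.67 ± 0.19 SE higher, and both stayed separated under all 4 alternatives. A second Plpp5 probe overlapped, with a difference of 0.56. Cibar1 was 0.67 ± 0.18 SE higher, and Tspan12, a tetraspanin of Norrin signalling, 0.65 ± 0.20 SE. None of these is in a list used here.

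On the lower side the largest separated differences were mostly of dim probes, several for genes known from other tissues. Timd2, a cell surface protein of the Tim family, measured -3.14, -3.15, -3.10 and -3.36 on the control and -3.73, -4.61, -4.89 and -4.83 on the Western diet. The control arrays were close together and the Western arrays spanned 1.15. The difference was -1.32 ± 0.21 SE, lost after quantile normalization. Ninl, a centrosome protein, was -1.05 ± 0.16 SE lower, though not separated with normexp. Trpm6, a magnesium channel of the gut and kidney, ranged from 1.38 to 2.67 on the control and 0.85 to 1.25 on the Western diet, a difference of -0.93 ± 0.31 SE that stayed separated under all 4 alternatives and was -0.61 without Control female 2 (2.67). Dmxl1 (-1.10 ± 0.39 SE) and Slc10a7 (-0.95 ± 0.27 SE) were separated under the main scaling and not after quantile normalization.

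Control female 2 set the size of several of these. Ldhc, a lactate dehydrogenase of sperm, was at -2.36 on that array and -4.47 to -4.0 on the other control arrays, and its difference of -1.14 ± 0.42 SE was -0.62 without it. Sftpd, a surfactant protein of the lung, went from -1.08 with Control female 2 to -0.63 without it. A930018P22Rik went from -0.88 to -0.32, and to -1.44 without the library labelled Control female 1. Pnldc1, an enzyme of germ cell small RNAs, went from -0.87 to -0.59 and Eln from -0.77 to -0.51. The odorant receptor gene Olfr681 was -0.94 ± 0.33 SE lower with Control female 2 and -0.89 without it. Ldhc and Trpm6 stayed separated under all 4 scaling alternatives, whereas Sftpd, A930018P22Rik, Pnldc1, Eln and Olfr681 did not after quantile normalization or with normexp, nor A930018P22Rik with the detected-probe percentile. Without Control female 2, 355 genes lay higher (2.1%) and 356 lower (2.1%).

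Without the library labelled Control female 1, 535 genes lay higher on every Western array (3.16%) and 484 lower (2.86%). Of the 535, 208 were separated with all 8 arrays and 327 were new. Leaving out any 1 array raises these counts, since 7 arrays separate more easily than 8. Of the genes separated on the other 7 arrays, 49.1% stayed separated when this library was added back. That share was 39.8% for Control male 1, 46.1% for Control male 2 and 70.3% for Control female 2. This library lay nearer its own diet in 41.5% of such genes, Control male 1 in 30.6%, Control male 2 in 38.7% and Control female 2 in 66.1%. The lists that gained members included redox and fat-burning genes. Of 50 Nrf2 and glutathione redox genes 9 lay higher in place of 0, against at most 2 when any other array was left out. Of 23 glutathione transferases 7 lay higher in place of 0 (at most 1 otherwise), and of 33 mitochondrial fatty acid oxidation genes 6 in place of 0 (at most 1 otherwise). Of 81 ribosomal protein genes 10 lay higher in place of 3 (at most 5 otherwise). Other lists gained more when a different array was left out. Without the library labelled Control female 1, 4 of 37 Cyp2 and Cyp3 genes, 2 of 55 interferon response genes and 0 of 43 T cell genes lay higher. Leaving out another array gave up to 7, 6 and 6. No test was made of these counts, and the genes named next were chosen after their values were seen.

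Me1, malic enzyme, which supplies NADPH, measured -0.62, -1.57, 3.49 and -1.19 on the control and 1.31, 4.01, 2.13 and 3.33 on the Western diet. The library labelled Control female 1 lay above 3 of the 4 Western arrays and the other 3 control arrays below all of them. The difference was 2.67 ± 1.04 SE with that library and 3.84 without it. Akr1b8, an aldo-keto reductase, measured 0.42, -0.53, 2.29 and -0.03 on the control and 2.18, 2.12, 1.38 and 2.24 on the Western diet, and the same library was the highest of all 8 arrays. Gstm1, a glutathione transferase, showed the pattern at 3.48 on that library, 1.40 to 1.80 on the other control arrays and 2.03 to 3.85 on the Western arrays.

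Gclm, a subunit of the enzyme that makes the glutathione precursor, was at 0.33 on that library, -0.42 to -0.18 on the other control arrays and 0.19 to 0.43 on the Western arrays. Acadl, the long-chain acyl-CoA dehydrogenase, measured 1.25, 0.98, 2.13 and 0.41 on the control and 2.10, 2.17, 2.07 and 2.01 on the Western diet. Its difference was 0.89 ± 0.35 SE with the library and 1.32 without it. Acot1, an acyl-CoA thioesterase, went from 1.46 to 2.29. The desaturase gene Scd1 went from 2.02 to 2.64. Nqo1 (0.36 ± 0.27 SE) and Gsta2 (0.78 ± 0.34 SE) belong to the same lists and had differences of 0.55 and 0.98 without it. Pdk4, Renbp, S100g, Sis and Mgam were chosen for no overlap of the diets, which by itself fixes the same library on the control side. Their differences without it were 3.39, 2.90, 1.70, -1.07 and -1.32.

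**Figure D4:**
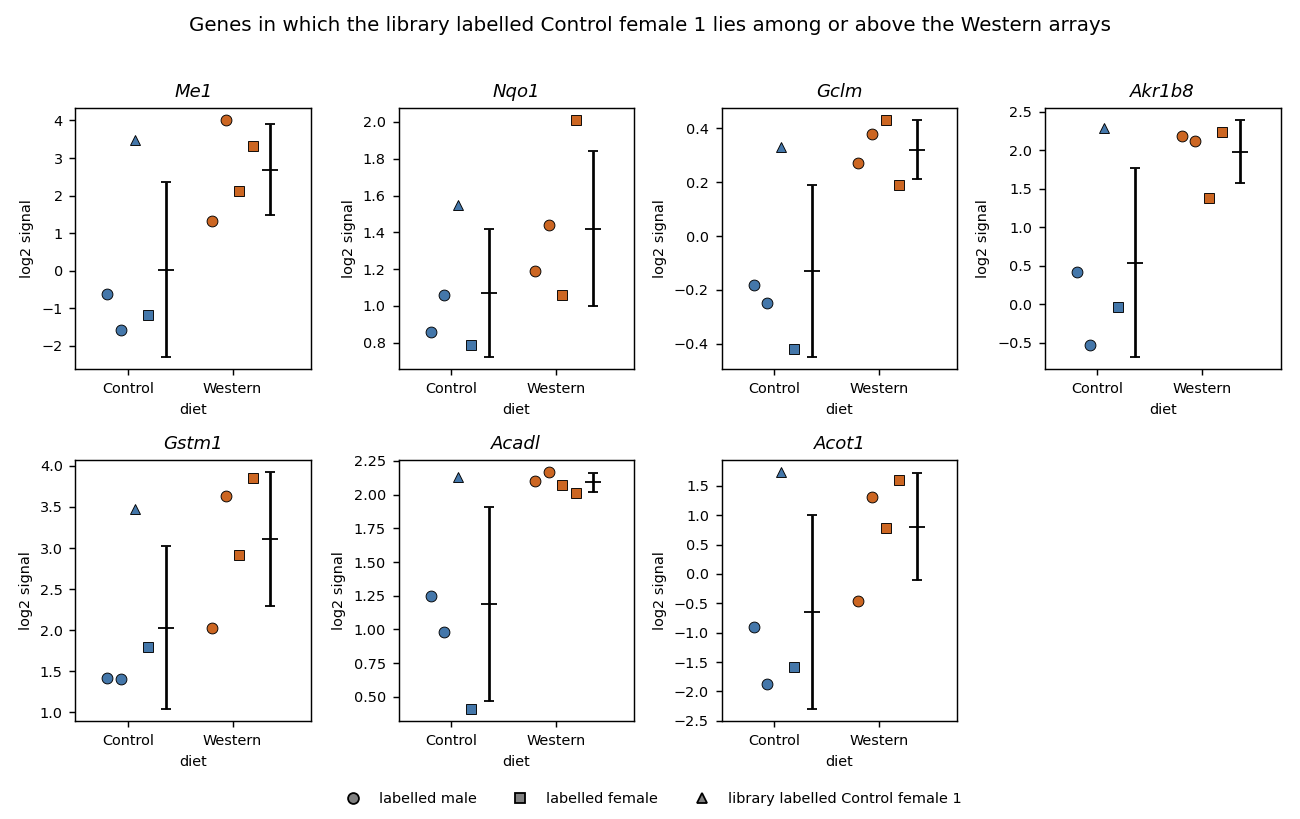
Log2 signal relative to the 75th percentile of the array for 7 redox and fat-burning genes, by diet. Each point is 1 array, the triangle is the library labelled Control female 1, and marks and bars are the mean and SD of 4 arrays. In all 7 panels the triangle lies within or above the Western arrays while the other 3 control arrays lie below every Western array, by a narrow margin for Nqo1. All 7 are genes that were separated only without that library, so their choice fixes this pattern.

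Second probes gave a partial check of the gene values on the same RNA. Of 61 other reliably detected probes for 53 of the genes that lay higher, 6 were separated too, 42 had the same sign with overlap and 13 the opposite sign. Of 25 other probes for 22 genes that lay lower, 6 were separated, 17 had the same sign with overlap and 2 the opposite sign. Alas1, Hunk, Mgam, S100g and Tcf7l2 each had a second separated probe. The second probes of Cbx3 (0.11), Srsf10 (0.11), Rpl14 (0.07) and Atg12 (0.02) overlapped, with smaller differences than the probes described. The same held for the second probes of Plpp5 (0.56), Bmi1 (0.29), Xpa (0.19), Seh1l (0.15) and Slco3a1 (-0.3).

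At the edge of the rule the gaps were minute. The gene just inside on the higher side was Eif3a, a translation initiation factor subunit with a difference of 0.23, whose lowest Western array exceeded its highest control array by 8.89e-05. Eif3a was separated under none of the 4 scaling alternatives, and its difference was 0.14 without Control female 2. The gene just outside was Naa50, an acetyltransferase, with a difference of 0.27. On the lower side Chd8 was just inside, by 0.00108, and Arid3b, a DNA-binding protein with the larger difference of -0.61, just outside.

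**Figure D5:**
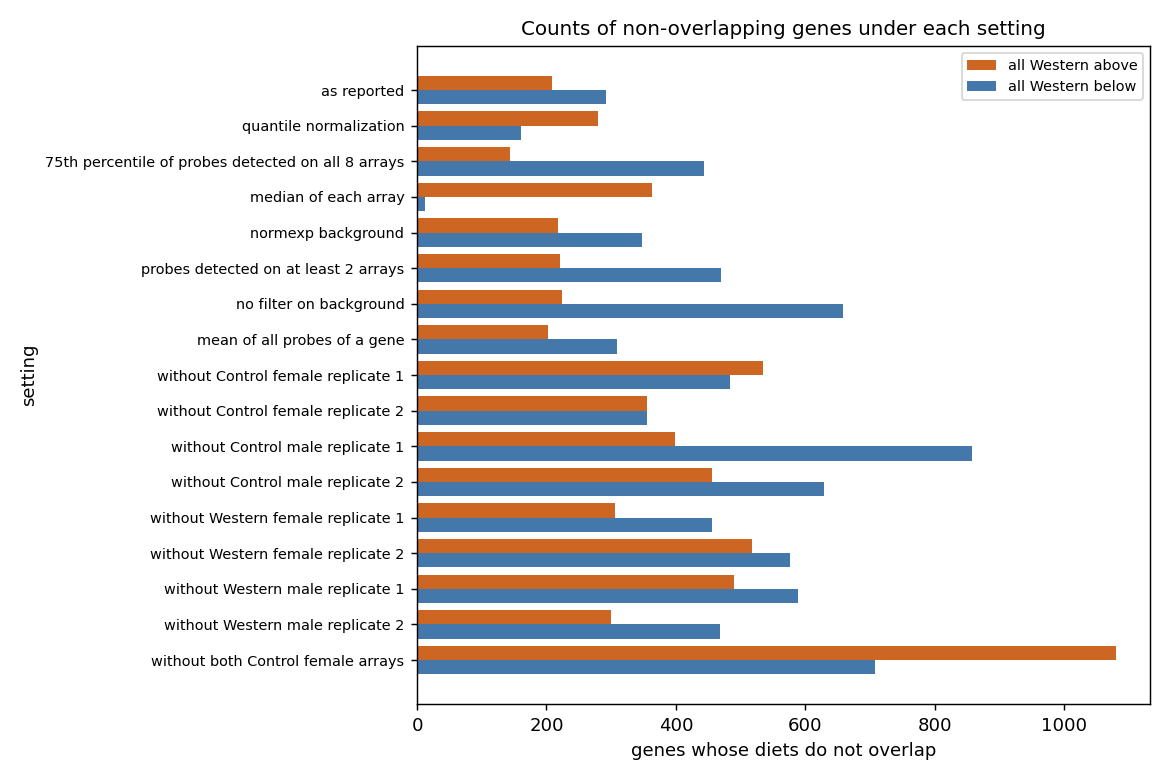
Number of genes whose diets do not overlap, by setting, with every Western array above (orange) or below (blue) every control array. The counts as reported are 208 and 292. Setting each array to its median leaves 12 lower genes, and leaving out both Control female arrays gives 1079 higher and 708 lower.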

How the data were processed

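Each deposited file was the Feature Extraction 10.7.3.1 output of 1 single-colour Agilent array (design 026655), per the file headers. The authors' deposited processed signal, an intensity on a linear scale with background already subtracted per the file headers, was used; no scaling between arrays is recorded in the files. The precision of array values is limited by the number of arrays, 4 on each diet. Control spots and outlier spots were left out, and spots of 1 probe were averaged. Each array's 75th percentile was subtracted on the log2 scale. Probes well above background on all 8 arrays were kept, and each gene took its brightest probe. Symbols came from a RefSeq table (GRCm38.p6, 26412 of 39429 probes named); the headers name the older build mm9, so no probe coordinates are given. Probes of close paralogs (class I, Cyp3a, glutathione transferase, ribosomal protein and odorant receptor genes) may read more than 1 gene.

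The diet difference was estimated in limma 3.58.1 (R 4.3.3) from 4 group means (4 residual and 3.361 prior degrees of freedom) with Benjamini-Hochberg adjustment, and the code was tested on simulated data. Alternatives were quantile normalization, the 75th percentile of probes detected on all 8 arrays, the median of each array, normexp (offset 50), other filters, the probe mean, other designs and leaving out each array. Normexp was run on the median spot signal, because the files used here hold no mean signal. Slide 1 held replicate 1 of every group, slide 2 Western male 2, and slide 3 the rest, scanned on another day. The 93 gene lists, the members and the rule for named genes were chosen with earlier results of these data known. The rule took Pdk4, the 15 largest differences each way, up to 6 separated members of a list, the genes at the edge and 3 Y-linked genes; overlapping genes are named for their values only. Some genes that met the rule are not reported here.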

Additional observations from a re-analysis of the deposited data

Results flagged for a closer look

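Among 192 sets of 4 arrays (96 named genes on 2 diets), 16 had 1 array far from the other 3, measured as its gap to the nearest other array divided by the range of the set and set against Dixon's limit for 4 arrays. Chance gives about 1 in 20, and genes chosen because their diets do not overlap are not a random draw.

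Control female 2 was the array apart in 5 sets, lowest for Aldh2 (0.938), Hunk (0.904) and Csta2 (0.891) and highest for Eln (0.979) and Suv39h1 (0.927). The library labelled Control female 1 was lowest for Arl3 (0.857) and Psmb8 (0.835). Control male 1 was lowest for Rdh5 (0.865) and highest for Cibar1 (0.835), and Control male 2 was lowest for Pnpla8 (0.917). On the Western diet, Western female 2 was lowest for Ldhc (0.97), Id2 (0.859) and Tcf7l2 (0.855). Western female 1 was highest for Rab30 (0.919) and Bco1 (0.865) and lowest for Akr1b8 (0.856). Without Control female 2 the differences of Aldh2, Hunk and Csta2 were 0.34, 0.54 and 0.63, each still higher on the Western diet.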

How the results depend on the processing

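The call of 0 genes for diet by limma held under every filter, scaling, background, design and left-out array tried except 1: with each array set to its median, limma pooled the spread of all genes into 1 common value and called 22 genes for diet (Pdk4 among them, difference 3.63) and 14 for the difference between the labelled sexes. Pdk4 was otherwise 2.13 (within slide 1) to 3.87 (within slide 3), 2.39 with normexp, 3.86 without both Control female arrays, 3.24 with the replicate block, and 2.90 to 3.59 with 1 array left out. The replicate block left the count at 0; same-numbered arrays deviated together in only some pairs of groups (correlations -0.097 to 0.384), so the numbers do not pair the arrays.

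The counts of separated genes moved most. Lower genes numbered 160 after quantile normalization, 443 with the percentile of detected probes, 12 with the median of each array, 469 and 658 with probes detected on at least 2 arrays or no filter; higher genes numbered 363 with the median of each array. Leaving out 1 array gave 300 to 535 higher, 356 to 858 lower and 88 to 167 list members (61 with all 8). Higher and lower genes numbered 399 and 858 without Control male 1, 456 and 628 without Control male 2, 535 and 484 without the library labelled Control female 1, 355 and 356 without Control female 2, 490 and 589 without Western male 1, 300 and 468 without Western male 2, 306 and 455 without Western female 1, and 517 and 576 without Western female 2. Without both Control female arrays, an alternative chosen after seeing the data, there were 1079 higher, 708 lower and 324 list members. With fewer arrays separation is easier by construction.

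Signs turned with the median of each array, which moves all genes by 0.38, for Pklr (0.11), Dhcr7 (0.08), Tcf7l2 (0.05), Capn8 (0.02), Chd8 (0.09), Lct (0.23), Treh (0.38) and Trpv6 (0.05), and after quantile normalization for Capn8 (0.18) and Trpv6 (0.22). Within slide 1, which holds the library labelled Control female 1, they turned for Scd1 (-0.16), Acot1 (-0.26), Nqo1 (-0.09), Gsta2 (-0.05), Lct (0.03) and Treh (0.22). Within slide 3, as Western female 2 minus Control female 2, they turned for Cd36 (-0.05), Psmb10 (-0.32) and Tap2 (-0.04). Lct (-0.56 to 0.25) and Treh (-0.23 to 0.22) also changed sign with 1 array left out, and without both Control female arrays (0.40 and 0.31). The cause was not tested. Of 2185 alternative values of named genes besides Pdk4, 2150 kept their direction and stayed without a call, 27 turned, and 8 passed the threshold, all with the median of each array. The genes that lay lower had a median SE of 0.173 and those that lay higher 0.148, at median levels of -2.43 and 0.87.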

Other observations

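Zinc finger genes whose symbol begins with Zfp and a number, a group chosen after the values were seen, numbered 259 among the reliably detected genes. Of these 14 lay higher on every Western array (5.41%, against 1.23% of all genes) and 4 lower (1.54%), with a median difference of 0.086. The higher genes were Zfp120, Zfp160, Zfp239, Zfp280b, Zfp317, Zfp36l2, Zfp426, Zfp51, Zfp64, Zfp664, Zfp68, Zfp770, Zfp781 and Zfp955a. Most of these encode DNA-binding proteins, while Zfp36l2 binds RNA. No test was made of this group.

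Odorant receptor genes (Olfr and a number), also grouped after the values were seen, had 57 reliably detected members at a median level of -3.42. Of these 0 lay higher and 5 lower (8.77%, against 1.73% of all genes), with a median difference of -0.264. Control female 2 had the highest median signal among dim genes, and its part in these counts was not tested.

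Transcripts without a symbol were more common on the lower side. Of the 292 genes that lay lower 57.5% had a symbol, of the 208 that lay higher 84.1%, and of all genes 73.2%.

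Globin and red cell transcripts had 0 of 12 separated members and a median difference of 0.396. Their summed signal ranged from 25.7 to 92.3 on the control and from 66.8 to 179 on the Western diet, relative to the 75th percentile of the array, and both Control female arrays lay lowest.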
